A study of Gallus gallus with 10 samples.

Results

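Growth hormone and prolactin signal through a short chain of proteins, and the genes of that chain were examined in whole brains of chicken embryos. The set was defined by gene symbol as GH, PRL, GHR, PRLR, JAK2, STAT5B, SOCS2, IGF1 and IGF1R. Of these 9 genes, 8 were represented on the array, by 10 of the 38439 probe sets tested, where 13051 genes were represented in all. STAT5B had no probe set under that symbol.

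The series compared male with female embryos, with 5 arrays per sex and 1 array per sample. Both groups consisted of total RNA from dissected whole brain, and sex was the only labelled difference between them. The labels used here state no embryonic age, no breed and no number of embryos per sample. Since no label says that samples came from separate embryos, p-values reflect only sample-to-sample spread, part of which may be technical. Male birds are ZZ and females ZW. GHR, PRLR and JAK2 lie on Z, so the comparison asks how these Z-linked genes and their autosomal partners differ between the sexes.

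Growth hormone and prolactin are made mainly by the anterior pituitary and bind the related class I cytokine receptors GHR and PRLR. These receptors have no kinase activity of their own and act through the bound tyrosine kinase JAK2, which phosphorylates STAT5 proteins. STAT5 raises transcription of SOCS2, which limits the signal, and, most of all in liver, of IGF1, whose product acts through the receptor tyrosine kinase IGF1R.

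Values were deposited as intensity per probe set, scaled to an equal trimmed mean of 2500 on every array. Median intensity per array ran from 592 to 720, and pairwise correlations between arrays were 0.918 to 0.946. Differences are male minus female on the scale log2(intensity + 16), fitted with limma, and a difference passed at a Benjamini-Hochberg adjusted p of 0.05. Intensities of different probe sets are not read as relative amounts of RNA, because probe sets differ in how well they bind. For the same reason, the background reference, the level for calling a gene expressed and the summed intensities used below are rough guides only. As a reference for background, the 95th percentile of 687 probe sets for viral sequences was taken on each array, and it ran from an intensity of 191 to 409. Neuronal markers lay above it on all 10 arrays for 6 of 7 genes and radial glia and astrocyte markers for 5 of 5, and no gene of either list passed. Of 2 measured oligodendrocyte markers, MBP lay above it on all arrays and MOG on 8. The vessel receptor gene FLT1 was the only gene of the 10 marker lists that passed, with a male minus female difference of 0.32 (adjusted p = 0.0338). The number of arrays limits the precision of all values. In whole tissue, fewer cells of a type and less RNA per cell cannot be told apart.

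None of the 10 probe sets passed the test for a sex difference. The count was 0 higher in males, where 0.643% of all probe sets passed in that direction, and 0 higher in females, where 0.156% passed. At an unadjusted limma p under 0.05, the count among the 10 was also 0, against 2633 (6.85%) of all probe sets. With background shares of this size, a count of 0 among 10 probe sets is near the background of all probe sets. That background is not a close reference for the 5 Z-linked probe sets, because 33.2% of Z genes passed as higher in males. The genes are therefore described by their levels on every array and by the intervals of their differences.

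**Figure D1:**
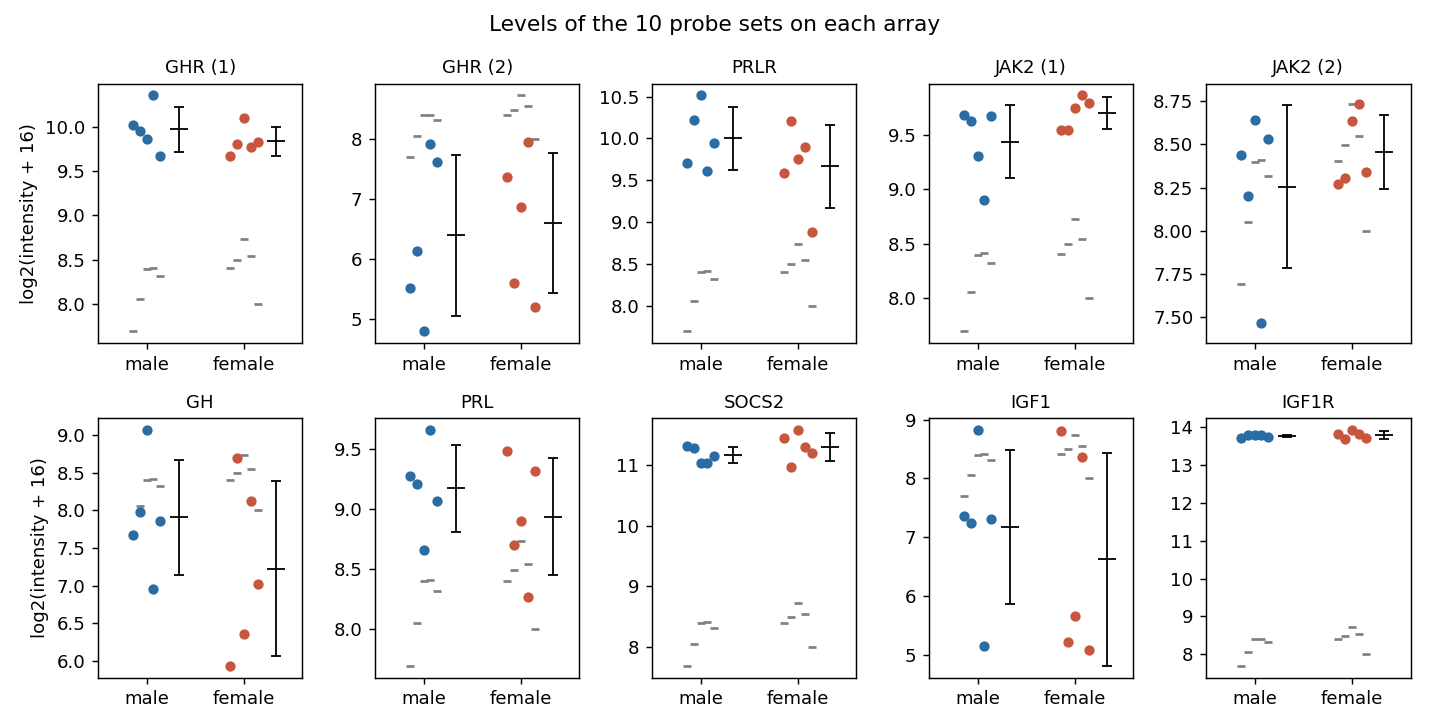
Levels of the 10 probe sets by sex, as log2(intensity + 16), with 1 point per array, the mean ± SD (n = 5) beside the points, and the 95th percentile of the viral probe sets on each array as a grey dash. The vertical scale differs between panels. Male and female points overlap in every panel. IGF1R, SOCS2, PRLR and the first probe sets of GHR and JAK2 lie above the grey dashes on all 10 arrays, whereas the second GHR probe set lies below them on all 10.

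The ligand genes lay near or a little above the viral background in these brains. The growth hormone gene GH, on chromosome 27 (Entrez gene 378781), had intensities of 188, 236, 519, 109 and 215 in male replicates 1 to 5 and 45, 398, 66, 262 and 114 in female replicates 1 to 5, the order kept for all genes. Only 1 male and 1 female array exceeded the viral 95th percentile, and the sexes overlapped over most of their range. The difference of 0.68 (SE 0.58, 95% interval -0.62 to 1.98, limma adjusted p = 0.906) did not pass. For the prolactin gene PRL, on chromosome 2 (Entrez gene 396453), males had 605, 577, 388, 792 and 520 and females had 702, 400, 463, 293 and 621. The highest value belonged to a male and the lowest to a female, and 9 of 10 arrays exceeded the viral 95th percentile. PRL differed by 0.24 (SE 0.26, 95% interval -0.34 to 0.82, limma adjusted p = 0.929).

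The labels do not say whether pituitary tissue came away with the brain. Of 7 measured anterior pituitary genes, GH and PRL among them, 0 lay above the viral 95th percentile on all arrays. Their summed intensity ran from 1641 to 2502 in males and from 1641 to 6817 in females. The wide female range came from the prohormone gene POMC, at 5299 on 1 female array, where its male range was 508 to 737. No pituitary gene passed, and the part of pituitary RNA in the GH and PRL values was not tested.

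The growth hormone receptor gene GHR, on Z (Entrez gene 408184), had a well detected and a weak probe set. With the first, males had 1026, 979, 918, 1294 and 796 and females had 800, 878, 1081, 858 and 895. The highest and the lowest array were both male, and 4 of 5 males lay above the female mean. GHR differed by 0.14 (SE 0.14, 95% interval -0.17 to 0.45, limma adjusted p = 0.923), which is a male to female ratio of 1.10 (95% interval 0.886 to 1.37). The second probe set had 30, 54, 12, 227 and 179 in males and 149, 32, 100, 232 and 21 in females. It exceeded the viral 95th percentile on 0 of 10 arrays, and its difference of -0.20 (SE 0.74) spanned both directions. The arrays did not line up between the probe sets, with a Pearson r of 0.07 (permutation p = 0.848) and a Spearman rho of -0.19 (permutation p = 0.609) over 10 arrays. Without the 2 arrays farthest from the median, r was -0.65 (n = 8), so the relation was not stable.

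The prolactin receptor gene PRLR, also on Z (Entrez gene 395660), had 823, 1176, 1448, 763 and 972 in males and 750, 1170, 849, 940 and 454 in females. Here 2 males exceeded every female and 2 females lay below every male, while the other 6 arrays were mixed. The group means were 1036 ± 279.6 (SD, n = 5) in males and 833 ± 263 (SD, n = 5) in females. PRLR differed by 0.33 (SE 0.26, 95% interval -0.26 to 0.93, limma adjusted p = 0.894), a ratio of 1.26 with an interval from 0.835 to 1.91. In mammals the choroid plexus is a site of prolactin receptor expression in the brain. Its 3 measured markers lay above the viral 95th percentile on all arrays. Their summed intensities, most of it from TTR, were 109580 to 144169 in males and 128517 to 154086 in females. None of the 3 passed, and TTR (-0.12, SE 0.10) and OTX2 (-0.08, SE 0.06) had small differences. The ion channel gene CLIC6 was lower on every male array than on any female array (339 to 827 against 873 to 1376, difference -0.78, SE 0.24, limma adjusted p = 0.294). The part of choroid plexus in the PRLR values was not tested.

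The kinase gene JAK2, on Z (Entrez gene 374199), had the lower mean in males with both of its probe sets. The first, brighter one had 807, 774, 619, 464 and 802 in males and 732, 732, 845, 917 and 871 in females. Here 3 females exceeded every male, and no male reached the female mean, although the other 2 females lay within the male range. The mean was 693 ± 149 (SD, n = 5) in males and 819 ± 83.7 (SD, n = 5) in females, and the difference of -0.26 (SE 0.16, 95% interval -0.63 to 0.11, limma adjusted p = 0.854) did not pass. The second probe set had 330, 279, 384, 161 and 354 in males and 293, 301, 382, 410 and 307 in females. It exceeded the viral 95th percentile on only 6 of 10 arrays, the sexes overlapped, and the difference was -0.20 (SE 0.22, 95% interval -0.70 to 0.30, limma adjusted p = 0.931). Male replicate 4 was the lowest array with both JAK2 probe sets, and without it the differences were -0.13 and -0.0036.

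Over the 10 arrays the JAK2 probe sets had a Pearson r of 0.77 (permutation p = 0.0349, adjusted p = 0.0699 over 4 such relations) and a Spearman rho of 0.53 (permutation p = 0.122). Deviations from the sex means gave r = 0.75 (permutation p = 0.0187, adjusted p = 0.0699) and a rho of 0.60 (permutation p = 0.0733). With the 2 arrays farthest from the median of the first probe set left out, r was 0.74 over levels and 0.18 over these deviations (n = 8). The arrays left out were chosen separately for each and were not the same pair. The sex means were not recomputed without them. These values therefore do not show whether the shared variation within a sex rests on few arrays.

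STAT5B had no gene of its own in the reference gene table and was listed there only as a synonym of STAT5A. STAT5A, a transcription factor gene on chromosome 27, is not counted among the 8 genes. STAT5A (Entrez gene 395556) had 2422, 2669, 3090, 2354 and 2767 in males and 2679, 2263, 2608, 2404 and 2159 in females. Although 2 males exceeded every female, the rest overlapped, and the difference of 0.13 (SE 0.11, limma adjusted p = 0.897) did not pass. Whether there is a separate STAT5B transcript that this probe set also binds was not tested.

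The feedback inhibitor gene SOCS2, on chromosome 1 (Entrez gene 395219), had 2534, 2462, 2070, 2080 and 2245 in males and 2751, 1975, 3024, 2506 and 2325 in females. The female values spread over a wider range, with the 2 highest arrays and the lowest. SOCS2 differed by -0.13 (SE 0.13, 95% interval -0.42 to 0.16, limma adjusted p = 0.919).

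In the growth factor arm, the receptor was measured precisely and its ligand was not. The IGF1R probe set, on chromosome 10 (Entrez gene 395889), had 13525, 14114, 14184, 14191 and 13765 in males and 14421, 13134, 15496, 14515 and 13439 in females. Its male to female ratio was 0.984 with a 95% interval from 0.873 to 1.11, the narrowest interval of the 10 probe sets (limma adjusted p = 0.984). The ligand gene IGF1, on chromosome 1 (Entrez gene 418090), had 149, 134, 436, 19 and 142 in males and 432, 21, 34, 314 and 18 in females. It exceeded the viral 95th percentile on 1 male and 1 female array only, and its ratio of 1.46 had an interval from 0.346 to 6.20 (limma adjusted p = 0.963). A sex difference of IGF1 within this wide interval, in either direction, was therefore not detectable with these arrays, which is not evidence that there is none.

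**Figure D2:**
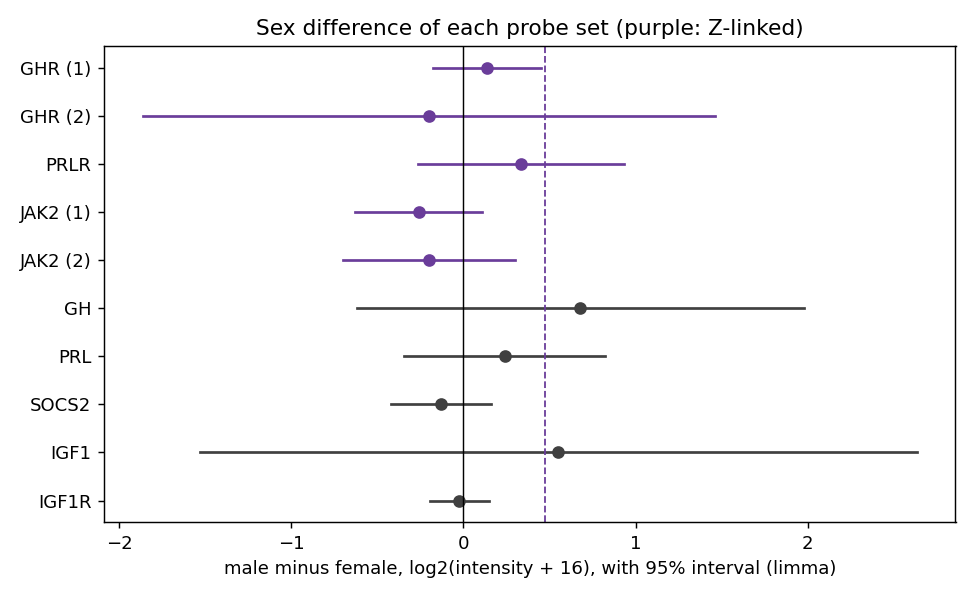
Sex difference of each of the 10 probe sets, male minus female on the log2(intensity + 16) scale (horizontal axis), with the 95% interval from limma. Z-linked probe sets are purple and the dashed line marks 0.47, the median of the 445 expressed Z genes. All 10 intervals include 0, and among the Z-linked probe sets those of the first GHR probe set and both JAK2 probe sets end below the dashed line.

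Because GHR, PRLR and JAK2 are Z-linked, their differences were also set against the Z chromosome. A gene was taken as expressed if its mean log2 value was at least 9.33, an intensity of 626. The median difference was 0.47 over 445 expressed Z genes, a ratio of 1.39, and -0.02 over 8728 expressed autosomal genes. On Z, 33.2% of the 606 genes passed as higher in males and 0.33% as higher in females, and none of the 3 genes was among either. The shares over all genes were 1.59% and 0.207%. Ranked among the 445 expressed Z genes, GHR lay above 64 (14.4%), PRLR above 156 (35.1%) and JAK2 above 4 (0.899%).

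For each array, a Z index was computed as the median over 442 expressed Z genes, without the 3 named here, of each gene's deviation from its own mean. The index ran from 0.23 to 0.29 in males and from -0.27 to -0.23 in females. Subtracting it from a probe set asks whether the sex difference departs from that of Z as a whole. The exact permutation test over all arrangements of the 10 arrays was two-sided, with a smallest possible p of 0.00794, and p-values were adjusted over all 1181 Z probe sets. By this measure 95 of the 1181 (8.04%) were lower in males than the Z index and 93 (7.87%) were higher.

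Both JAK2 probe sets were among those below. Relative to the Z index, the first stood at -0.17, -0.22, -0.49, -0.92 and -0.14 in males and at 0.21, 0.22, 0.45, 0.54 and 0.46 in females. The second stood at -0.21, -0.43, 0.05, -1.14 and -0.07 in males and at 0.15, 0.19, 0.55, 0.63 and 0.22 in females. All 5 females exceeded all 5 males with each probe set. The differences were -0.76 and -0.71, each with an exact permutation p of 0.00794 (adjusted p = 0.0499), and both probe sets belong to 1 gene and 1 set of arrays. The second is dim, with a mean log2 value of 8.36, below the expressed level of 9.33, whereas the index is from expressed Z genes. Background can shrink a dim probe set's sex difference and so place it below the index. How far this holds for the second probe set was not tested.

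The JAK2 adjusted p lay at the threshold, and it is the lowest that this test gave, shared by all 188 probe sets that passed. With any 1 array left out, the lowest adjusted p of any Z probe set was 0.0542 to 0.0674. No probe set could pass there, so the lost call alone says nothing about stability. The first JAK2 probe set stayed at the lowest value in each of these fits. The second lay above it without any 1 female array (exact permutation adjusted p from 0.0801 to 0.112). Limma on the same values, an alternative added after the data were seen, gave adjusted p = 0.0145 (SE 0.16) for the first JAK2 probe set and 0.0607 (SE 0.22) for the second. With limma and 1 array left out, the first passed in 10 of 10 fits (adjusted p from 0.0215 to 0.0366) and the second in 0 of 10 (0.0563 to 0.118). Against the 20 nearest expressed Z genes in place of the whole chromosome, the differences were -0.43 and -0.37 (exact permutation adjusted p = 0.0572, again the lowest of any Z probe set, and 0.321).

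For the receptors the departure from Z did not pass. Relative to the Z index, the first GHR probe set differed by -0.37 (exact permutation p = 0.0397, adjusted p = 0.137), with values from -0.48 to 0.20 in males and from about 0 to 0.47 in females. With 1 male, replicate 4, above 4 of the 5 females, the groups overlapped. By limma the adjusted p was 0.105, and 0.0455 without male replicate 4 (difference -0.46). The second GHR probe set differed by -0.70 (exact permutation adjusted p = 0.580). PRLR differed by -0.17 (exact permutation p = 0.556, adjusted p = 0.701), and its values from -0.48 to 0.45 in males and from -0.72 to 0.62 in females lay over each other. For PRLR the limma interval of this departure ran from -0.77 to 0.43, which holds both no departure and the whole of the Z difference, so its place relative to Z was not resolved.

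**Figure D3:**
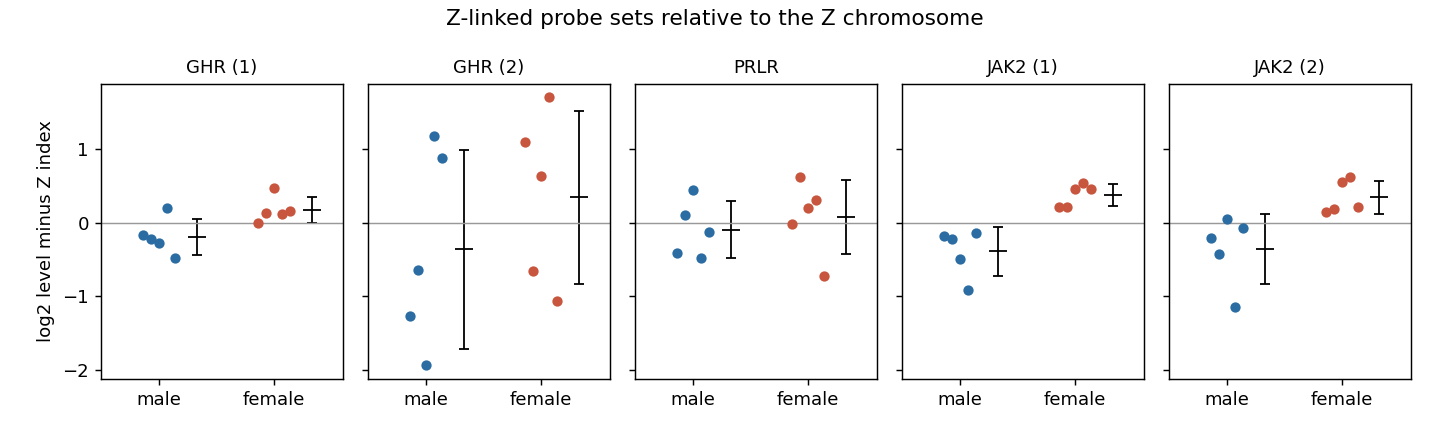
Levels of the 5 Z-linked probe sets minus the Z index of each array (log2, vertical axis), with 1 point per array and the mean ± SD (n = 5). The JAK2 panels are the ones in which all 5 female points lie above all 5 male points.

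The genes beside each Z-linked gene were then examined, taking the 5 nearest measured genes on either side in Z gene order. Of all Z genes, 33.2% passed as higher in males and 0.33% as higher in females, and the counts of 10 are read against these shares. The expressed neighbours were 7 around PRLR, 7 around GHR and 8 around JAK2. Whether the neighbourhoods differ from each other was not tested. Around PRLR, 5 of 10 neighbours were higher in males, and their median difference was 0.72. They were the DNA damage checkpoint gene RAD1 (0.81, SE 0.12), the ribosome assembly gene BRIX1 (0.91, SE 0.12), the aminotransferase gene AGXT2 (0.79, SE 0.11), CAPSL (1.07, SE 0.22) and LMBRD2 (0.65, SE 0.12). All 5 males exceeded all 5 females for each of these 5 genes. PRLR at 0.33 lay between AGXT2 and SPEF2, which differed by 1.17 (SE 0.45, limma adjusted p = 0.526), and the cytokine receptor gene IL7R after it differed by -0.05 (SE 0.57).

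Around GHR, 27 measured genes away from PRLR, 2 of 10 neighbours were higher in males with a median of 0.20. They were the ketone body enzyme gene OXCT1 (0.51, SE 0.06) and C5orf51 (1.06, SE 0.05). The other 8 did not pass. Of these, TMEM267 differed by 0.93 (SE 0.31, limma adjusted p = 0.369) with all 5 males above all 5 females, and ZNF131 by 0.89 (SE 0.41). The selenium carrier gene SELENOP1 (-0.14, SE 0.09) and the sterol synthesis gene HMGCS1 (0.21, SE 0.12) had small differences.

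Around JAK2, 0 of 10 neighbours were higher in males and 1 was higher in females, with a median of 0.25. The gene next to JAK2, annotated as the relaxin family gene RLN3, was higher in females by 1.01 on the log2 scale (male minus female -1.01, SE 0.19, limma adjusted p = 0.0259), and all 5 females exceeded all 5 males. RLN3 is 1 of the 2 Z genes that passed as higher in females. On the other side, the nucleolar gene RCL1 differed by 0.33 (SE 0.08, limma adjusted p = 0.0952) with all 5 males above all 5 females. The immune checkpoint ligand gene CD274 differed by -0.06 (SE 0.23) and PDCD1LG2 by -0.95 (SE 0.75). Whether the JAK2 neighbourhood as a whole departs from Z was not tested.

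**Figure D4:**
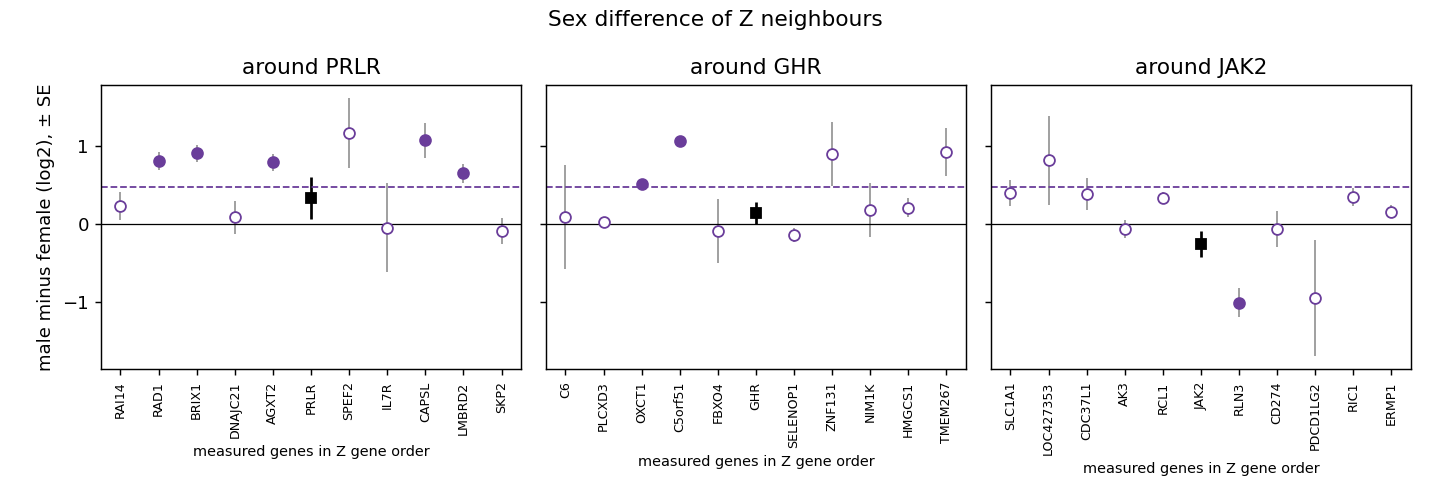
Sex difference (log2, ± SE) of the 5 nearest measured genes on each side of PRLR, GHR and JAK2, in Z gene order and without distances. Filled circles passed, open circles did not, black squares are the named gene, and the dashed line is the Z median of 0.47. Neighbours of PRLR include 5 that were higher in males, and RLN3 beside JAK2 is the filled point at -1.01.

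Beyond these genes, 6 lists of the wider pathway were described at 1 probe set per gene, with adjustment over all 13051 genes. Of 113 measured genes, 1 passed as higher in males, where 1.59% of all genes did, and 0 in females, against 0.207%. The counts are near the background of all genes. That background comes mostly from Z, which held 201 of the 207 genes higher in males. Among the 9 Z-linked genes of the lists 1 passed, against 33.2% of Z genes. Over all genes the median difference was -0.02.

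Hypothalamic and pituitary control of hormone release was measured for 19 of 24 listed genes. None passed, the median difference was 0.08, and 12 were positive. The lowest p belonged to the somatostatin receptor gene SSTR1, at 4790 to 5778 in males and 5620 to 7435 in females (difference -0.22, SE 0.10, limma adjusted p = 0.641). VIP, a peptide that releases prolactin in birds, was at 4681 to 5882 in males and 4339 to 5104 in females, with 3 males above every female (0.17, SE 0.08). The receptors for growth hormone releasing hormone, GHRHR, and for ghrelin, GHSR, had large but uncertain differences of 1.22 (SE 0.70) and 1.13 (SE 0.52), and GHRHR exceeded the viral 95th percentile on 0 arrays. A second, dimmer GHSR probe set differed by 0.14, and the mean over both by 0.63. The releasing hormone gene GHRH differed by 0.65 (SE 0.69) and the pituitary transcription factor gene POU1F1 by 0.18 (SE 0.49).

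Among the other JAK and STAT genes, 5 of 9 were measured and 0 passed, with a median of 0.13. STAT3 differed by -0.14 (SE 0.12), JAK1 by -0.08 (SE 0.08) and JAK3 by 0.21 (SE 0.20). STAT5A had the lowest p of the list.

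Of 22 measured negative regulators and adaptors of cytokine receptors, 1 was higher in males and 0 in females, and the median was -0.01. The gene that passed was PIAS2, a Z-linked SUMO ligase gene of the family that inhibits STAT proteins. Its intensity ran from 7571 to 9597, with a median of 8478, in males and from 6003 to 7306, with a median of 6534, in females. All 5 males exceeded all 5 females, and the difference was 0.40 (SE 0.08, limma adjusted p = 0.0486), a ratio of 1.32. Its 3 probe sets agreed in size (0.40, 0.41 and 0.34), but none passed when adjusted over all probe sets. Relative to the Z index PIAS2 differed by -0.11 (exact permutation adjusted p = 0.413). The PIAS2 call was held by 2 of the 10 fits that left out 1 array, those without male replicate 5 or female replicate 3. Without any other array the limma adjusted p ran from 0.106 to 0.138, while the difference stayed between 0.36 and 0.41. The STAT5 targets CISH and SOCS3 differed by 0.00 (SE 0.11) and -0.12 (SE 0.57), and the direction of both turned under several alternatives.

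The insulin-like growth factor system had 21 of 24 genes measured and 0 that passed, with 7 positive differences and a median of -0.06. IGF2 differed by -0.28 (SE 0.33) and exceeded the viral 95th percentile on 3 arrays. Its dimmer probe sets differed by 0.29 and -0.24. The IGF2 clearance receptor gene IGF2R differed by 0.11 (SE 0.10) and the insulin receptor gene INSR by -0.06 (SE 0.07). IGFBP2, which encodes a secreted binding protein, differed by -0.14 (SE 0.07), with 3 females above every male. The insulin gene INS had the lowest p (1.29, SE 0.56, limma adjusted p = 0.640) at 219.9 to 531 in males and 34.9 to 371 in females.

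All 25 measured genes of the downstream kinase list were expressed and 0 passed, with a median of -0.01 and a range from -0.67 to 0.21. The survival gene BCL2L1 had the lowest p (-0.19, SE 0.11, limma adjusted p = 0.798). PIK3R1, the Z-linked regulatory subunit of phosphoinositide 3-kinase, differed by 0.10 (SE 0.06) with 4 males above every female. Its dimmer probe sets differed by 0.03 (SE 0.19), 0.20 (SE 0.27) and -0.13 (SE 0.91).

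Chicken Z carries several other class I cytokine receptor genes, and of 21 measured genes of that family 7 were Z-linked. None of the 21 passed, with a median of -0.01. On Z, LIFR differed by 0.14 (SE 0.09), IL6ST by 0.13 (SE 0.38), CNTFR by 0.06 (SE 0.23), OSMR by 0.00 (SE 0.24), IL7R by -0.05 (SE 0.57) and IL11RA by -0.77 (SE 0.66). The dimmer OSMR probe sets ran from -0.82 to 0.11, and the 3 dimmer IL7R probe sets were at -0.60, -0.31 and -0.78, which gave a mean over the IL7R probe sets of -0.44. IL31RA differed by 0.62 (SE 0.25, limma adjusted p = 0.582), and without female replicate 3 it passed at 0.85 (SE 0.15, limma adjusted p = 0.0361). Off Z, CRLF2 had the lowest p of the list (-1.17, SE 0.46, limma adjusted p = 0.565) at low intensity, 13.8 to 34.0 in males and 19.7 to 175 in females. With GHR and PRLR added, 0 of 9 Z-linked class I cytokine receptor genes passed, against 33.2% of Z genes. Of these, IL6ST, IL7R, IL11RA and IL31RA lay below the expressed level, with SE from 0.25 to 0.66. The expressed PRLR, OSMR and CNTFR had SE of 0.26, 0.24 and 0.23. With SE of this size, a difference near the Z median of 0.47 had little room to pass. LIFR and the first GHR probe set were measured more precisely, with SE of 0.09 and 0.14. Whether this family differs from other Z genes was not tested.

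**Figure D5:**
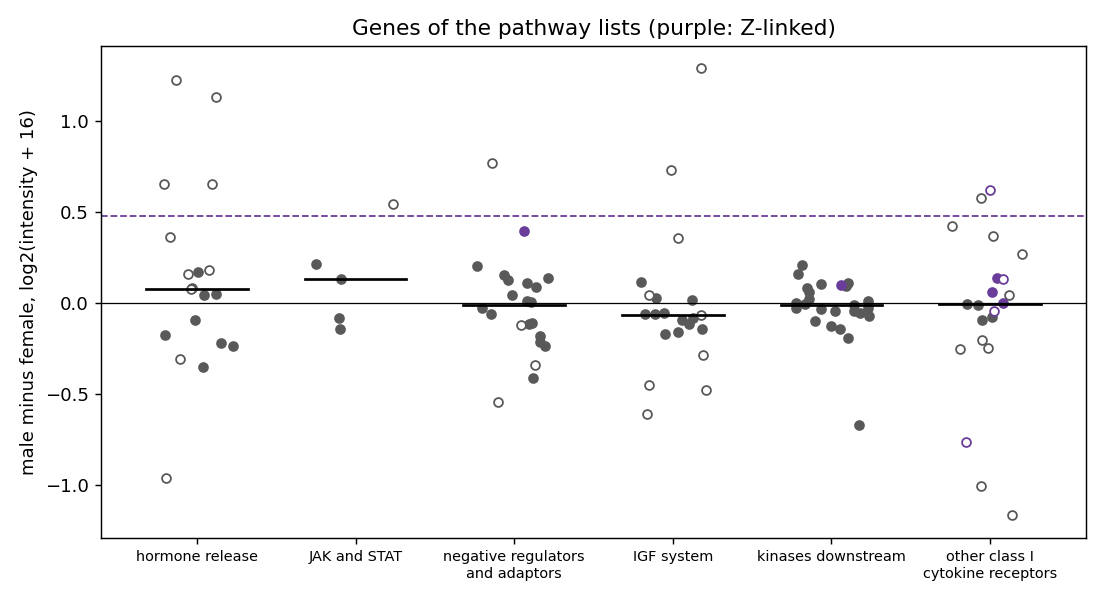
Sex difference of each measured gene (log2, vertical axis) in the 6 pathway lists, with the list median as a bar and the Z median of 0.47 as a dashed line. Filled points are expressed genes, open points are below that level, and purple points are Z-linked. PIAS2, the filled purple point at 0.40 among the negative regulators, is the gene that passed.

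Of the 9 Z-linked genes in these lists, 5 were expressed, and 8 had a difference below 0.47, the median of expressed Z genes. All 606 Z genes had a median of 0.40, and any median has as many genes below it as above it. Of the 9, 6 were positive, where 82.3% of Z genes were, and their median was 0.10. Whether these 9 genes as a group differ from other Z genes was not tested. Relative to the Z index, LIFR differed by -0.37 and PIK3R1 by -0.41, each with all 5 females above all 5 males (exact permutation p = 0.00794, adjusted p = 0.0499). The PIK3R1 value is from the brightest of its 4 probe sets alone. With limma on the same values, both passed as well (adjusted p = 0.0327 for LIFR and 0.0113 for PIK3R1), and further alternatives were run on GHR, PRLR and JAK2 only. OSMR at -0.51 and CNTFR at -0.44 did not pass (exact permutation adjusted p = 0.260 and 0.268). Nor did the dimmer IL6ST at -0.37, IL7R at -0.55 and IL11RA at -1.27 (exact permutation adjusted p = 0.568, 0.573 and 0.292). IL31RA lay above the index, at 0.12 (exact permutation adjusted p = 0.827). The LIFR and PIK3R1 departures are read against the 8.04% of Z probe sets that lay below in the same test.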

How the data were processed

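The authors deposited 1 linear intensity value per probe set and array for 38535 probe sets on 10 arrays, and the mean without the highest and lowest 2% was 2500 on every array. The summary method and software are not stated in the labels. The 96 manufacturer's control probe sets were left out. Probe sets were named from GEO's platform annotation (27168 with 1 symbol, 177 with several, 11094 with none), updated by gene identifier through a reference table of assembly bGalGal1.mat.broiler.GRCg7b, which also gave chromosome and gene order. Of 13051 genes, 178 were not matched.

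The members and lists were chosen with earlier results of these data known. Values were taken as log2(intensity + 16), which lowers differences of dim genes, with no further normalization or filter. Male and female arrays were compared in limma 3.58.1 under R 4.3.3, adjusted over all probe sets, or over genes with the brightest probe set for each. The differences beyond the Z index were adjusted over all 1181 Z probe sets, where the plan had named the 5 Z-linked ones alone. The code was tested on simulated data. Named genes were all probe sets of the set, fixed genes of the lists, the gene with the lowest p or the called gene of each list, the 5 neighbours on each side, and the 2 genes most alike in pattern. JAK1, JAK3, POMC, CLIC6, TTR, OTX2, MBP, MOG, FLT1 and IL31RA were named after their values were seen. SST had no value here. Alternatives changed the pseudocount, normalization, filter, variance model, probe sets, Z reference genes and arrays used.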

Additional observations from a re-analysis of the deposited data

How the results depend on the processing

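The counts of 0 held in both directions under all 18 alternatives. Among these, the filter for level did not test GH, PRL, IGF1 or the second GHR and JAK2 probe sets. Wherever tested, the differences of the first GHR probe set, PRLR, both JAK2 probe sets, GH, PRL, SOCS2 and IGF1 kept their sign. Their sizes moved by over 1.5 times without 1 array: first GHR probe set 0.043 to 0.22, PRLR 0.14 to 0.47, JAK2 -0.32 to -0.13 and -0.30 to -0.0036, GH 0.36 to 1.04, PRL 0.072 to 0.38, SOCS2 -0.22 to -0.063 and IGF1 0.14 to 1.10. The negative relation of JAK2 to the Z index kept its sign under all 27 alternatives. It lost the call, for the first and the second probe set, with a pseudocount of 1 (-0.77 and -0.72), quantile normalization (-0.70 and -0.57), the 20 nearest Z genes (-0.43 and -0.37), and, for the second, with limma (-0.71). Without 1 array the JAK2 departures were -0.83 to -0.63 and -0.81 to -0.51, where even the smallest exact permutation p did not pass after adjustment. The same held with a pseudocount of 1, quantile normalization and the 20 nearest genes, whose lowest adjusted p was 0.0512, 0.0504 and 0.0572. The second JAK2 probe set lay above the lowest value with quantile normalization and the 20 nearest genes (exact permutation adjusted p = 0.144 and 0.321). It also did so without any 1 female array. For the first GHR probe set the range without 1 array was -0.46 to -0.29, and limma without male replicate 4 passed. JAK2 kept the call with a pseudocount of 64 and with all Z genes as reference. In the list of negative regulators, PIAS2 was no longer called, a count of 0, with quantile normalization (adjusted p = 0.0565), with the mean over probe sets (0.116) and without suffixed probe sets (0.0764). Without 1 array the count ran from 0 to 1 there and from 0 to 1 among class I cytokine receptors. Signs turned for OSMR with a pseudocount of 64 (0.00045), quantile normalization (0.10) and autosomal centring (0.012), for IL7R (0.12) and SOCS3 (0.036) with quantile normalization, and for CISH (-0.00042) and SOCS3 (0.092) with array weights. Without 1 array, signs turned for GHR's second probe set (-0.58 to 0.20), IGF1R (-0.050 to 0.0092), IL6ST (-0.23 to 0.27), OSMR (-0.11 to 0.18), CNTFR (-0.041 to 0.24), IL7R (-0.47 to 0.20), CISH (-0.059 to 0.073), SOCS3 (-0.51 to 0.26) and POU1F1 (-0.063 to 0.51). The cause of these changes was not tested. Counts of all genes higher in males and in females were 207 and 27, and 146 and 24 with the mean over probe sets, 141 and 23 without suffixed probe sets and from 149 to 198 and from 16 to 29 without 1 array.

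The title letters B to E occur in both sexes. No label says that arrays with the same letter are pairs, and male replicate 1 has no letter, so the letters were not taken as pairs. The correlations of same-lettered deviations were 0.053, 0.115, 0.010 and -0.006. As a hint from the data only, 5 of 8 arrays correlated best with their own letter. How many would do so without pairing was not tested, so pairing remains undecided. With the letter as a replicate block over these 8 arrays, 0 genes were called in males and 1 in females. The list of negative regulators then had 0 calls (PIAS2 0.40), and the JAK2 departures were -0.86 and -0.80, where 4 pairs allow an exact permutation p of at least 0.125. Under this block signs turned for GHR's second probe set (0.21), IL6ST (-0.16), OSMR (0.077), IL7R (0.17), CISH (-0.0019) and SOCS3 (0.19).

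GH, IGF1 and the second GHR probe set lay near the viral background on most arrays, so their differences were not resolved. With 5 arrays per sex, the interval of PRLR includes both no difference and the Z median difference. That of PRL, which is not on Z, ran from -0.34 to 0.82.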

Other observations

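Genes with related names that are outside the defined set were also read, a choice made after the values were seen. The prolactin-like gene PRLL differed by 0.57 (SE 0.65), the prolactin-releasing hormone gene PRLH by -0.23 (SE 0.75), GHRHR-LR by 0.27 (SE 0.36) and GHDC by 0.27 (SE 0.22). None of these 4 genes passed. PRLL and PRLH exceeded the viral 95th percentile on 1 array each.

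For each well detected gene of the set, the 2 expressed genes most alike in pattern were found by Pearson correlation of deviations from the sex means, over 10 arrays and 9286 genes. They were ZFYVE27 (0.92) and HSF2BP (0.90) for GHR, LPP (0.95) and RSL1D1 (0.94) for PRLR, and KIF11 (0.95) and NCOA7 (0.92) for JAK2. For SOCS2 they were MCM2 (0.94) and TRIQK (0.94), and for IGF1R they were GMPS (0.95) and TMEM170A (0.94). The highest of many correlations over 10 arrays is high by selection, and the arrays share scaling and RNA, so the values are a description only.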
